A study of Mus musculus with 4 samples.

Results

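Chemokines and chemokine receptors were followed across 4 mouse liver arrays. The members were all probe sets whose single annotated symbol names a numbered Ccl, Cxcl, Xcl or Cx3cl ligand, a numbered Ccr, Cxcr, Xcr or Cx3cr receptor, or Pf4, which is platelet factor 4. That rule found 66 of 22626 probe sets, covering 49 of 12393 singly named genes, of which 33 encode ligands and 16 receptors. Probe sets with several symbols, such as those of the Ccl19, Ccl21 and Ccl27 gene copies, fall outside it. Livers came from grown C57BL6 males killed 6 days after an adenovirus injection. In the Ad-lipin group (2 arrays) the virus carried the mouse lipin 1beta cDNA, and in the GFP control group (2 arrays) it carried green fluorescent protein. All 4 livers had therefore received a virus, and livers without a virus were not analysed here. Lipin 1 is a phosphatidate phosphatase that also works in the nucleus as a coactivator of fatty acid oxidation genes. Ad-lipin replicate 2 is labelled polyA RNA, the other 3 samples total RNA; whether replicate arrays stem from different mice is not stated.

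Chemokines are small secreted proteins that direct the migration of leukocytes, and they are named by the spacing of their first cysteines (CC, CXC, CX3C and XC). They bind membrane receptors that signal through inhibitory G proteins, and many ligands share a receptor. In liver, hepatocytes, Kupffer cells, sinusoidal endothelium and stellate cells can all make them, and adenoviral vectors are known to induce several soon after injection. In whole liver, fewer cells of a type and less RNA per cell cannot be told apart.

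No chemokine or receptor passed the test between the groups, and for 20 of 28 tested genes (71.4%) the arrays of a group lay at least as far apart as the group means, against 79.9% of all tested genes. Cxcl9, Cxcl10, Cxcl1 and Ccl6 were high in GFP control replicate 1 and low in GFP control replicate 2. On their brightest probe sets, Cxcl12 and Ccl9 were near level over the 4 arrays. Cx3cr1, Cx3cl1, Ccl27a and Cxcr5 were higher on both arrays labelled Ad-lipin than on both GFP control arrays. That was 4 of 28 tested genes (14.3%), against 17.3% of all tested genes. For Cx3cl1 and Cxcr5, Ad-lipin replicate 2 barely exceeded the higher GFP control array. Cxcl5, Cxcl13, Cxcl16, Cxcl17, Ccr2, Ccr8, Cxcr6 and Xcr1 were lower on both, 8 of 28 (28.6%) against 16% of all tested genes. For Cxcl16 this holds for the brightest probe set, while its other tested probe set was higher on both. Of 32 member probe sets bright enough to test, limma called 0 higher and 0 lower (adjusted p under 0.05), and 0 had an unadjusted p under 0.05. Over all 13576 probe sets tested, limma called 0% higher and 0% lower, and 2.47% higher and 1.92% lower at an unadjusted p under 0.05.

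The 5' flanks of the 4 ligand genes that were at least 4-fold higher in GFP control replicate 1 than in replicate 2 are shown, because the NF-kB and interferon response motifs of such flanks are the classical control elements of inflammatory chemokines. RefSeq's GRCm38.p6 table holds 300 bases, 250 before the start and 50 after it, for 36 of the 49 genes. Capitals mark matches to TTTCNNTTT (the core of an interferon-stimulated response element, ISRE), TTCNNNGAA (a gamma-activated site, GAS), GGNNNTTCC (NF-kB) or TATAAA (the box bound by TATA-binding protein in core promoters), with both strands searched.
Cxcl9 (chr5:92328030-92328329, minus strand): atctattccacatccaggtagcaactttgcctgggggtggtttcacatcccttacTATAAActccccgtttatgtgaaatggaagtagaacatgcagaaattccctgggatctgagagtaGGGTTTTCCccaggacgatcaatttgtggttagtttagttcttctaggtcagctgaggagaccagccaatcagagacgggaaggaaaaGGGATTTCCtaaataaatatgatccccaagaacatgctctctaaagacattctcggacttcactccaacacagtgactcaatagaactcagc
Cxcl10 (chr5:92348840-92349139, minus strand): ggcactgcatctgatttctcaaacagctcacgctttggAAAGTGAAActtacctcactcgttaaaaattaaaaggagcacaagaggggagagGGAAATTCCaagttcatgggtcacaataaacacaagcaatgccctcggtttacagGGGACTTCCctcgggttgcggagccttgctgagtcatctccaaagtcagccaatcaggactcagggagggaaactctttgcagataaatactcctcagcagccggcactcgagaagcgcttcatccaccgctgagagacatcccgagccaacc
Cxcl1 (chr5:90890995-90891294, plus strand): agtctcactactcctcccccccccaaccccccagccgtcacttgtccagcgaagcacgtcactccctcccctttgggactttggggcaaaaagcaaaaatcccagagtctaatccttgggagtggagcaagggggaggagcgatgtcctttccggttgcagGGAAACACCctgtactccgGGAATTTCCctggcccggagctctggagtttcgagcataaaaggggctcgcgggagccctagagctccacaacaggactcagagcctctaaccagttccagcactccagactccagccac
Ccl6 (chr11:83593038-83593337, minus strand): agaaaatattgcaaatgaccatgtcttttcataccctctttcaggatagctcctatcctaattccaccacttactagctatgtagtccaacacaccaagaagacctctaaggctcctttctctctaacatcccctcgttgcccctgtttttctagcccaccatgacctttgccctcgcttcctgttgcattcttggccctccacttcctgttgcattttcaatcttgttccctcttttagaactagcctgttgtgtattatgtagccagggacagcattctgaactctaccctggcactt
Cxcl10 held an ISRE match from -212 to -204 and NF-kB matches from -158 to -150, on both strands, and from -103 to -95, counted from the start site. Cxcl1 held NF-kB matches from -89 to -81 and, on both strands, from -70 to -62. Cxcl9 held NF-kB matches from -130 to -122 and from -42 to -34 and a TATA match from -195 to -190, and Ccl6 held none of these letters in its window. Among 40 windows of member genes, 12 (30%) held the NF-kB letters and 4 (10%) the ISRE letters, against 18.5% and 10.6% of all 32851 windows. The GAS letters stood in 3 member windows (7.5%) and 8.3% of all windows, and the TATA letters in 10 (25%) and 13.6%. Besides Cxcl9, Cxcl10 and Cxcl1, the NF-kB letters were in windows of the ligands Cxcl2, Ccl1, Ccl9, Ccl12, Ccl20, Ccl25 and Cx3cl1 and of the receptors Ccr3 and Ccr6. These matches describe sequence and were not tied to the signals.

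Values below are MAS5 signals in arbitrary units, on a linear scale, one per probe set and array. Median signals of all probe sets were between 582 and 746 per array. GFP control replicate 2 stood apart: its correlations with the rest averaged 0.731, those of the others 0.781 to 0.793, and it had the highest 3' to 5' beta-actin ratio, 4.22 against 1.77 to 2.86. Lpin1, the gene on the virus, had a signal of 3854 in Ad-lipin replicate 1 and 11087 in Ad-lipin replicate 2, against 7082 and 4632 in GFP control replicates 1 and 2. Its second probe set gave 2261 and 6719 against 2730 and 1430, so Ad-lipin replicate 1 was not above the control range and each direction below rests on the labels. Summed signals of 8 hepatocyte marker genes such as Alb were 2327544 and 2893910 in the arrays labelled Ad-lipin, against 1674515 and 3509604 in the GFP control arrays, and all 8 passed the filter for dim probe sets described next.

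Dim members were common. A floor of 119.5, the 20th percentile of the whole table, replaced lower signals, and probe sets whose geometric mean over the arrays was under 373 were not tested. This left 32 of 66 member probe sets (48.5%) and 28 of 49 genes, against 60.0% of all probe sets. Among ligands 25 of 43 probe sets were tested, and among receptors 7 of 23. Cxcl5, Cxcl2 and Cx3cr1 lay just inside the filter, at geometric means of 391, 391 and 394, and probe sets of Cxcl11, Ccr9 and Ccl22 just outside, at 353, 347 and 341. Member probe sets under the floor numbered 18 and 26 in Ad-lipin replicates 1 and 2 (27.3% and 39.4%), against 20 and 12 in GFP control replicates 1 and 2 (30.3% and 18.2%). Over all probe sets that share was 19.9% and 20.7%, against 20.9% and 18.4%. The array labelled Ad-lipin replicate 2 had the most member signals under the floor, and it was the highest array for 0 of 28 tested member genes, against 21.1% of all tested genes. GFP control replicate 2 was the highest array for 13 of the 28 (46.4%), against 34.2% of all tested genes. The part of the RNA type and of the actin ratio in these counts was not tested.

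**Figure D1:**
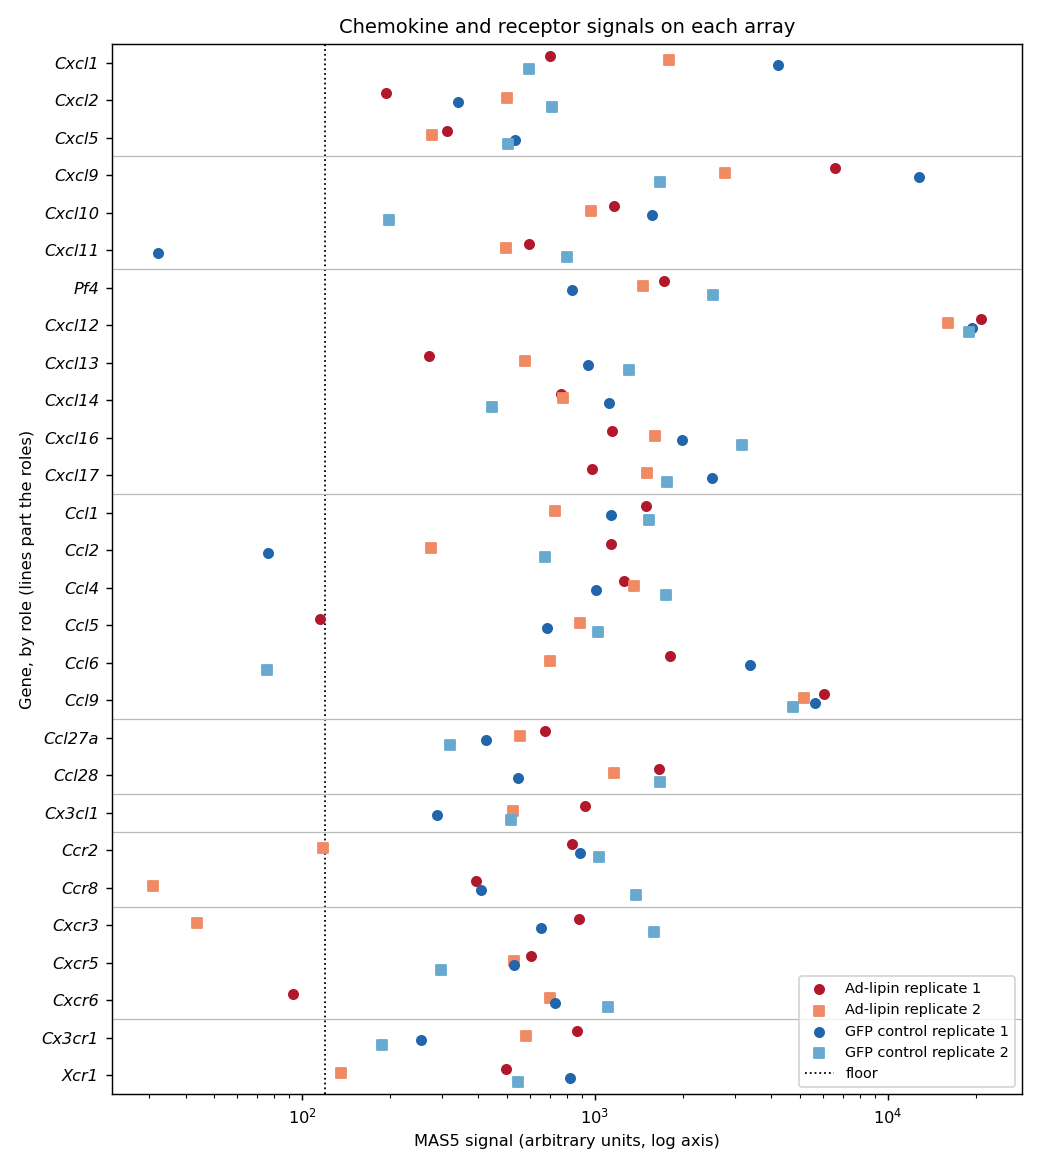
MAS5 signals (horizontal log axis, arbitrary units) of the brightest tested probe set of each of the 28 tested genes, one point per array, with the floor of 119.5 dotted. Levels are comparable along a row and not between rows. The Cxcl12 and Ccl9 points lie close together, while those of Ccl6 run from 75.8 in GFP control replicate 2 to 3375 in GFP control replicate 1.

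The CXCR3 ligands attract activated T and NK cells and are induced by interferons. Cxcl9 had signals of 6586 and 2787 in Ad-lipin replicates 1 and 2, against 12752 and 1670 in GFP control replicates 1 and 2. Both arrays labelled Ad-lipin fell between the GFP control arrays, which were 7.64-fold apart. The log2 difference, Ad-lipin minus GFP control on the floored scale, was -0.11 ± 0.69 (limma SE, n = 2 per group, adjusted p = 0.986).
Cxcl10 had 1165 and 968 in the arrays labelled Ad-lipin, against 1566 and 198 in the GFP control arrays. Again both lay inside the GFP control range, 7.93-fold wide, while the arrays labelled Ad-lipin were close together. Its log2 difference was 0.93 ± 0.97 (limma adjusted p = 0.962), or 2.43 without GFP control replicate 1 and -0.56 without GFP control replicate 2.
Cxcl11 had 594 and 495 against 32.3 and 803, so the order of the GFP control arrays was opposite to that of Cxcl9 and Cxcl10. The RefSeq table of C57BL/6J lists Cxcl11 as a transcribed pseudogene. Its log2 difference was 0.81 ± 1.43 (limma adjusted p = 0.965), or -0.57 without GFP control replicate 1, and a second, untested probe set had 475 and 98.7 against 993 and 276. The probe sets of Cxcl11 therefore ordered the GFP control arrays oppositely.

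Of the ligands that draw neutrophils through CXCR2, the tested gene Cxcl1 had the widest gap between the GFP control arrays. Cxcl1 signals were 702 and 1788 in Ad-lipin replicates 1 and 2, against 4215 and 594 in GFP control replicates 1 and 2. Again the GFP control arrays, 7.1-fold apart, enclosed both others. The log2 difference was -0.50 ± 0.81 (limma adjusted p = 0.962), but -1.91 without GFP control replicate 2 and 0.92 without GFP control replicate 1.
Cxcl5, a neutrophil ligand made mainly by epithelial cells, had 312 and 278 in the arrays labelled Ad-lipin, against 534 and 504 in the GFP control arrays. The groups did not overlap and the arrays agreed closely within each, at 1.12-fold and 1.06-fold apart. The log2 difference was -0.82 ± 1.39, or 1.76-fold lower in the arrays labelled Ad-lipin (limma adjusted p = 0.965), where the SE is drawn towards that of probe sets of similar, low intensity. It ran from -0.90 to -0.73 when each array was left out in turn.
Cxcl2 had 193 and 501 against 340 and 711, with overlapping groups, and its log2 difference was -0.66 ± 1.43 (limma adjusted p = 0.976). Cxcl15, the mouse ligand called lungkine, was too dim to test, with 71.7 and 585 against 106 and 701.

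Other CXC ligands included level signals and groups that did not overlap. Cxcl12, the CXCR4 ligand that retains blood progenitors and is made by stromal and endothelial cells, had 20780 and 15988 in Ad-lipin replicates 1 and 2, against 19355 and 18912 in GFP control replicates 1 and 2. The groups overlapped, with a log2 difference of -0.07 ± 0.32 (limma adjusted p = 0.986). Its second tested probe set had 3676 and 4631 against 2574 and 3809, a log2 difference of 0.40 ± 0.40.
Cxcl13, which attracts B cells through CXCR5, had 271 and 575 in the arrays labelled Ad-lipin, against 943 and 1302 in the GFP control arrays. Both were below both GFP control arrays. The log2 difference was -1.49 ± 0.91, or 2.81-fold lower (limma adjusted p = 0.962), from -2.03 without Ad-lipin replicate 2 to -0.95 without Ad-lipin replicate 1. An untested Cxcl13 probe set had 707 and 25.1 against 187 and 325, where the groups overlapped.
The 5 B cell marker genes summed to 2635 and 2208 in the arrays labelled Ad-lipin, against 4690 and 5674 in the GFP control arrays. In 4 of the 5 (Blnk, Cd79a, Cd22 and Ms4a1) both arrays labelled Ad-lipin were below both GFP control arrays. Over all tested genes that share was 16%. None of the 5 was under the floor on all arrays. The part of B cells in the Cxcl13 signal was not tested. Cxcr5, the receptor of Cxcl13 on B cells, had a difference of opposite sign, with 604 and 531 against 530 and 299. Ad-lipin replicate 2 barely exceeded GFP control replicate 1, at 530.9 against 530.1. The log2 difference was 0.51 ± 1.18 (limma adjusted p = 0.977), or 0.09 without GFP control replicate 2.

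Cxcl16, a transmembrane ligand that binds CXCR6, had 1146 and 1607 in Ad-lipin replicates 1 and 2, against 1976 and 3167 in GFP control replicates 1 and 2. On this brighter probe set the groups did not overlap, with a log2 difference of -0.88 ± 0.50, or 1.84-fold lower (limma adjusted p = 0.962). A second tested probe set, of the kind that can match several transcripts, had 1087 and 680 against 489 and 272. There both arrays labelled Ad-lipin were above both GFP control arrays, with a log2 difference of 1.24 ± 1.04 (limma adjusted p = 0.962), so the Cxcl16 probe sets disagreed in direction, and their mean difference was 0.18.
Cxcl17, a mucosal ligand, had 980 and 1504 against 2510 and 1761. The groups were separated, with a log2 difference of -0.79 ± 0.53, or 1.73-fold lower (limma adjusted p = 0.962).
Pf4, released from platelets, had 1715 and 1462 against 834 and 2518, and Cxcl14, an epithelial ligand, had 768 and 779 against 1116 and 444. For both genes the arrays labelled Ad-lipin lay between the GFP control arrays, and the log2 differences were 0.13 ± 0.60 and 0.14 ± 0.85. Summed signals of 4 platelet marker genes were 3453 and 3311, against 2157 and 2906. Of these 4, 2 were too dim to test, and the groups overlapped for the tested genes Gp1bb and Itga2b.

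Among the tested inflammatory CC ligands, Ccl6 had the widest gap between the GFP control arrays. Ccl9, on its brightest probe set, was near level over the 4 arrays. Both Ccl6 and Ccl9 are mouse ligands of myeloid cells that act on CCR1. Ccl6 had 1803 and 702 in Ad-lipin replicates 1 and 2, against 3375 and 75.8 in GFP control replicates 1 and 2. The GFP control arrays were 44.5-fold apart and enclosed both others, with a log2 difference of 0.83 ± 1.18 (limma adjusted p = 0.962) that was 3.24 without GFP control replicate 1 and -1.58 without GFP control replicate 2. The second Ccl6 probe set kept this order of the GFP control arrays, with 838 and 856 against 1733 and 209.
Ccl9 had 6029 and 5183 against 5649 and 4739, with groups that overlapped and arrays of a group at most 1.19-fold apart. The log2 difference was 0.11 ± 0.35 (limma adjusted p = 0.98). The second tested Ccl9 probe set was less level, with 1514 and 1229 against 861 and 1657, and gave 0.19 ± 0.60.
Ccl2, the ligand that brings CCR2-positive monocytes from blood, had 1132 and 275 against 76.4 and 674. Each group held a high and a low array, and the log2 difference of 0.97 ± 1.49 (limma adjusted p = 0.962) was -0.27 without GFP control replicate 1 and 2.22 without GFP control replicate 2. Ccr2, its receptor on inflammatory monocytes, had 834 and 118 against 888 and 1035. Both arrays labelled Ad-lipin were lower, but Ad-lipin replicate 1 was close to the GFP control arrays, and the log2 difference of -1.60 ± 1.16 (limma adjusted p = 0.962) shrank to -0.20 without Ad-lipin replicate 2. Of the other Ccr2 probe sets, both untested, one reached 640 in GFP control replicate 2 and was under the floor elsewhere. The other, with 187 and 114 against 26 and 43.5, was higher on both arrays labelled Ad-lipin. It exceeded the floor only in Ad-lipin replicate 1.
Ccl5, a ligand made by T cells and platelets, had 115 and 890 against 684 and 1024. Ad-lipin replicate 1 alone was low, and the log2 difference of -1.36 ± 1.21 (limma adjusted p = 0.962) was 0.09 without it. Ccl4 had 1255 and 1363 against 1006 and 1748, and Ccl1, the CCR8 ligand, had 1496 and 731 against 1138 and 1530. In both, the groups overlapped, and the log2 differences were -0.02 ± 0.59 and -0.34 ± 0.64. Ccr8, found on regulatory T cells, had 393 and 31.0 against 409 and 1382, with -1.79 ± 1.43 as the log2 difference (limma adjusted p = 0.962), or -0.94 without Ad-lipin replicate 2.

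The tested homeostatic and CX3C ligands had log2 differences above 0, none of which passed. Ccl27a, a ligand of CCR10 in skin, had 673 and 557 against 426 and 320. The groups were separated, with a log2 difference of 0.73 ± 1.17 (limma adjusted p = 0.962), on a probe set of the kind that may also read related transcripts. Ccl28, the mucosal CCR10 ligand, had 1657 and 1158 against 544 and 1662, and its log2 difference of 0.54 ± 0.69 was -0.26 without GFP control replicate 1.
Cx3cl1, the membrane-bound ligand fractalkine, had 921 and 523 against 288 and 515, so that Ad-lipin replicate 2 barely exceeded GFP control replicate 2. The log2 difference was 0.85 ± 1.11, or 1.8-fold higher (limma adjusted p = 0.962). A second Cx3cl1 probe set, untested, had 27.4 and 62.4 against 21.5 and 884, so GFP control replicate 2 alone exceeded the floor. Another untested one had 47.4 and 168 against 109 and 135, where the groups overlapped.
Cx3cr1, its receptor on patrolling monocytes and some macrophages, had 866 and 580 against 255 and 188. Both arrays labelled Ad-lipin were more than 2-fold above both GFP control arrays. The log2 difference of 1.69 ± 1.39, or 3.24-fold higher (limma adjusted p = 0.962), stayed between 1.40 and 1.98 when each array was left out in turn. A second Cx3cr1 probe set was too dim to test, at 44.9 and 23.1 against 165 and 36.9, where GFP control replicate 1 alone exceeded the floor. Summed signals of 10 monocyte and macrophage markers were 34845 and 24750, against 38498 and 27053. Csf1r made up most of that sum, with 22294 and 12733 against 26254 and 16714. Of the 7 of those markers that were tested, 5 had log2 differences below 0 and 2 above. Only 1 of the 7 was higher on both arrays labelled Ad-lipin, as Cx3cr1 was, against 17.3% of all tested genes. That marker was Clec4f, a lectin of Kupffer cells, with 1413 and 2136 against 210 and 1245. Its difference was 1.77 ± 0.84 on the log2 scale, which limma did not call (adjusted p = 0.962). The part of macrophage content in the Cx3cr1 signal was not tested. None of those 10 was under the floor on all arrays.

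Cxcr3, Cxcr6 and Xcr1 each had a single array labelled Ad-lipin that was much lower than the other. Cxcr3, on effector T and NK cells, had 879 and 43.9 against 656 and 1584, so Ad-lipin replicate 2 alone was low. The log2 difference of -1.65 ± 1.15 (limma adjusted p = 0.962) was -0.21 without that array. Cxcr6, on liver NKT and resident T cells, had 92.9 and 703 against 729 and 1111, with Ad-lipin replicate 1 alone low, and its log2 difference of -1.63 ± 1.2 was -0.36 without that array. A second Cxcr6 probe set, untested, had 459 and 84.1 against 131 and 515, with the order of the arrays labelled Ad-lipin turned round.
Xcr1, the receptor of cross-presenting dendritic cells for XCL1, had 498 and 136 against 824 and 546. Both were lower, with a log2 difference of -1.36 ± 1.36 (limma adjusted p = 0.962) that was -0.43 without Ad-lipin replicate 2. T cell markers (9 measured) summed to 4268 and 3555, against 1450 and 5137, with Cd3d under the floor on all arrays and 6 too dim to test. NK cell markers (7 measured) summed to 3881 and 3401, against 5328 and 4893, with 3 too dim to test. Of the 4 tested, 2 (Gzma and Prf1) were lower on both arrays labelled Ad-lipin, against 16% of all tested genes. The groups overlapped for Gzmb and Nkg7. In these sums T cell markers were lowest in GFP control replicate 1, and NK cell markers were lower in both arrays labelled Ad-lipin. The part of these cells in the receptor signals was not tested.

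**Figure D2:**
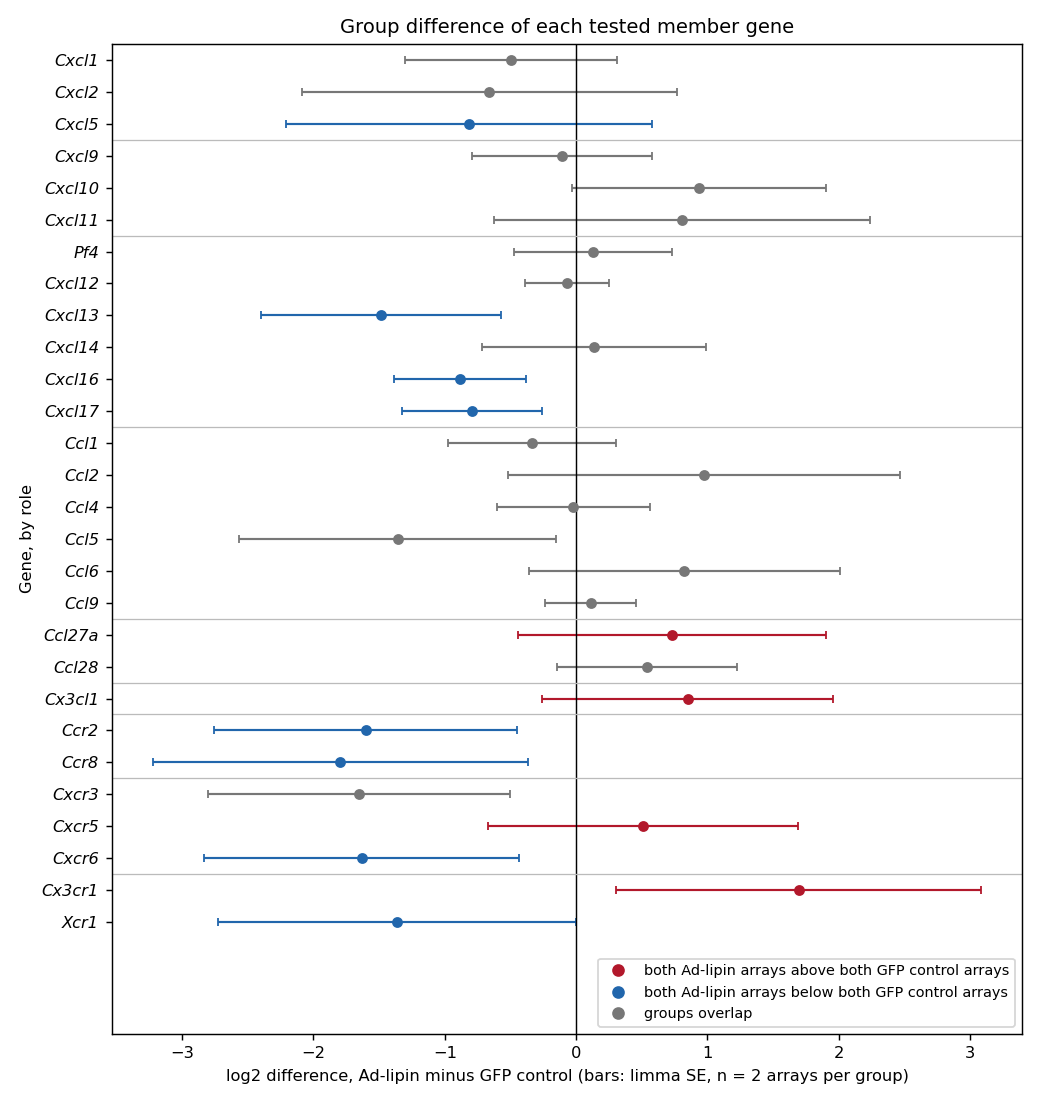
Log2 difference of each of the 28 tested genes, Ad-lipin minus GFP control, with limma's SE as bars (n = 2 arrays per group). No gene passed the test. Red marks 4 genes with both arrays labelled Ad-lipin above both GFP control arrays, blue marks 8 with both below, and Cx3cr1 at 1.69 and Ccr8 at -1.79 are the ends of the range.

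In 4 of 28 tested genes (14.3%) both arrays labelled Ad-lipin exceeded both GFP control arrays, against 17.3% of all 8493 tested genes. In 8 of 28 (28.6%) both were below, against 16% of all tested genes. The first share is near that of all genes, and the second exceeds it by a few genes, 4 of which are receptors with a single low array. By probe set the counts were 5 and 8 of 32, against 17.1% and 15.9% of all probe sets. The median log2 difference of the 28 genes was -0.09, with 12 above 0 and 16 below, and over all tested genes it was 0.00148. These 28 are the genes that passed the filter, so the shares do not describe all 49. With an array left out, 4 to 10 genes were higher and 10 to 16 lower. Without Ad-lipin replicate 1 there were 4 and 11 (30.1% and 32.7% of all tested genes), and without GFP control replicate 2 there were 9 and 13 (36.2% and 30%). Without Ad-lipin replicate 2 there were 7 and 10 (33.3% and 30.5%), and without GFP control replicate 1 there were 10 and 16 (33.9% and 39.9%).

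The spread inside a group exceeded the group difference for most members. The absolute log2 difference between the groups exceeded both within-group gaps in 8 of the 28 genes (28.6%), against 20.1% of all tested genes. Over the 28 genes the median absolute gap was 0.72 between the arrays labelled Ad-lipin and 0.81 between the GFP control arrays, against 0.53 and 0.68 over all tested genes. GFP control replicate 1 was at least 4-fold above GFP control replicate 2 for Cxcl9, Cxcl10, Cxcl1 and Ccl6, 4 of 28 genes, against 6.57% of all tested genes. The reverse held for Ccl2 and Cxcl11, against 6.59%. Ad-lipin replicate 1 was at least 4-fold above replicate 2 for Ccl2, Ccr2 and Cxcr3 (5.24% of all tested genes), and the reverse held for Ccl5 and Cxcr6 (4.46%). This 4-fold limit was chosen after the values were seen. It compares single arrays and carries no test.

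**Figure D3:**
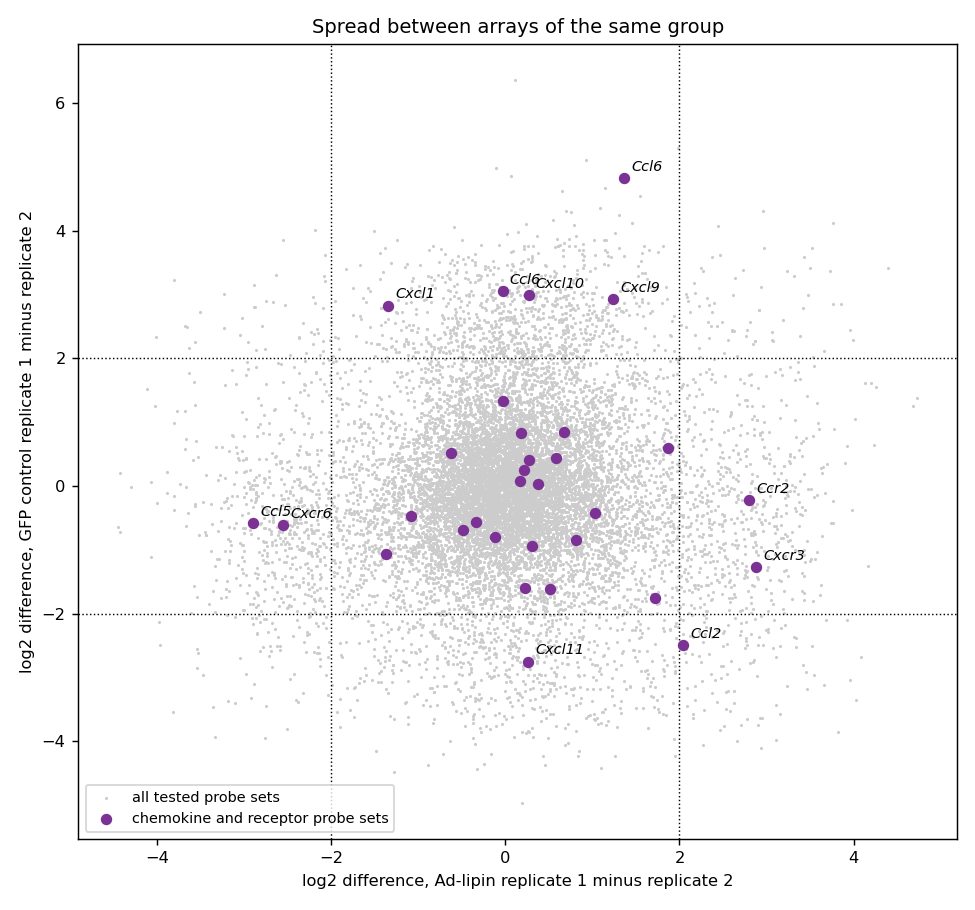
Log2 gap between the GFP control arrays (vertical) against that between the arrays labelled Ad-lipin (horizontal), replicate 1 minus replicate 2, for the 32 tested member probe sets (purple) over all 13576 tested probe sets (grey), with dotted lines at 4-fold. Both Ccl6 probe sets, Cxcl10, Cxcl9 and Cxcl1 lie above the upper line, and Cxcl11 and Ccl2 below the lower one.

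Beside the 4 ligands that were high in GFP control replicate 1, the summed signal of 8 leukocyte markers was 8314 and 7506 in Ad-lipin replicates 1 and 2, against 12666 and 5518 in GFP control replicates 1 and 2. GFP control replicate 1 had the highest sum and GFP control replicate 2 the lowest. Of the 7 leukocyte markers tested, GFP control replicate 1 was highest for 6 and GFP control replicate 2 lowest for 2, Laptm5 and Lcp1. Over all tested genes those shares were 19.7% and 27.3%. Of the 7, only Laptm5 and Lcp1 had the array order of Cxcl9, Cxcl10, Cxcl1 and Ccl6 at both ends. Outside that list S100a8, 1 of 6 tested neutrophil markers, had it too, with 4026 and 489 in GFP control replicates 1 and 2. So did Lyz2, 1 of 7 tested monocyte and macrophage markers. In the lists around the chemokine system, Cklf (1 of 6 tested), Gnai3 (1 of 17) and Irf7, Tlr3 and Tlr9 (3 of 18) had it. No tested T cell, NK cell, B cell, platelet, endothelial, stellate cell or hepatocyte marker did. The share of all tested genes with this order at both ends was not counted, so these counts have no background beside them. None of the 8 leukocyte markers was under the floor on all arrays. Neutrophil markers (7 measured) summed to 5183 and 4783, against 7579 and 6941, and liver endothelial markers (7 measured) to 19289 and 26110, against 18154 and 25928. Stellate cell and fibroblast markers (8 measured) summed to 20376 and 40259, against 38654 and 53884. Dcn made up most of that sum, with 11734 and 29832 against 29167 and 41994. Of the 6 of those markers that were tested, 4 had log2 differences below 0 and 2, Reln and Col3a1, above. The part of leukocyte content, and that of RNA quality, in these ligand signals was not tested.

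**Figure D4:**
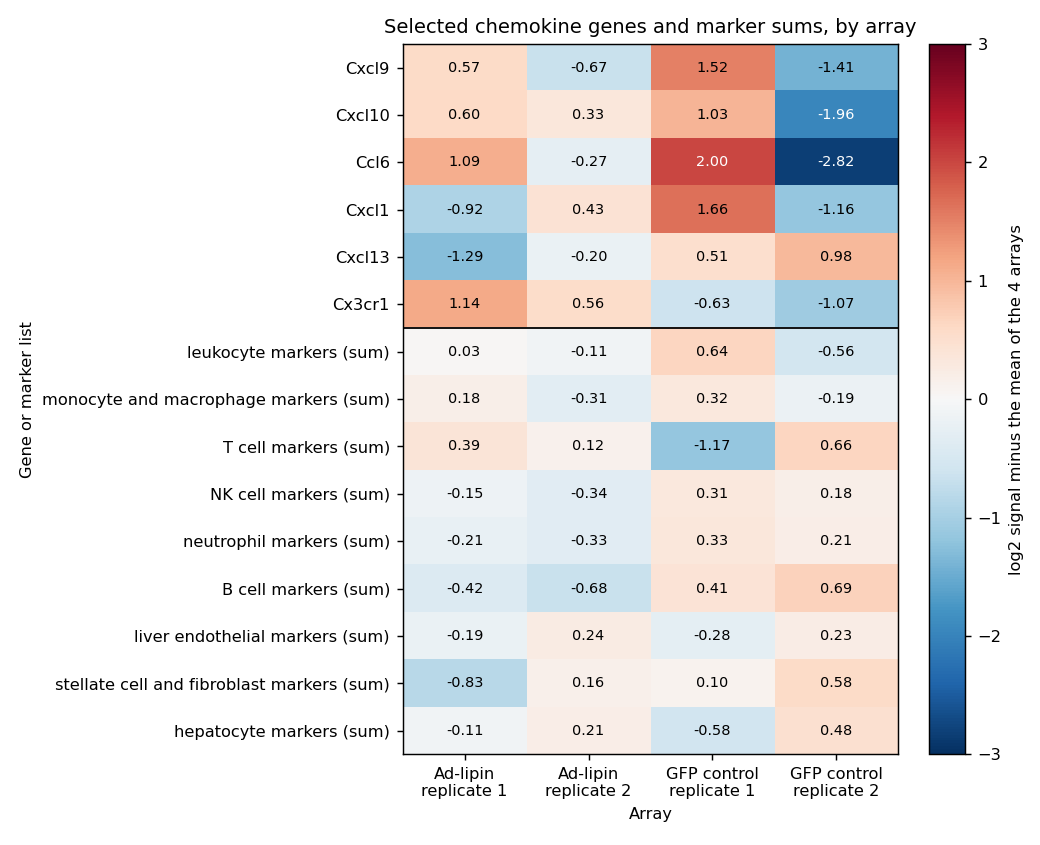
Log2 signal of 6 chemokine genes (floored) and of 9 summed marker lists on each array, minus the mean of the 4 arrays. Cxcl9, Cxcl10, Ccl6 and Cxcl1 are highest in GFP control replicate 1 (1.52, 1.03, 2.00 and 1.66) and lowest in GFP control replicate 2 (-1.41, -1.96, -2.82 and -1.16), and leukocyte markers share these ends (0.64 and -0.56).

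The other 21 genes had no probe set bright enough to test. They were the ligands Ccl3, Ccl7, Ccl8, Ccl11, Ccl12, Ccl17, Ccl20, Ccl22, Ccl24, Ccl25, Cxcl15 and Xcl1 and the receptors Ccr1, Ccr3, Ccr4, Ccr6, Ccr7, Ccr9, Ccr10, Cxcr2 and Cxcr4. The 34 untested probe sets had signals between 18.6 and 1655, and 6 of them exceeded 1000 on some array. Those of Ccr3 and Ccr7 were under the floor on all 4 arrays. In 11 of the 34 (32.4%) a single array exceeded the floor, against 19.2% of all untested probe sets, and in 5 of these 11 (45.5%) it was GFP control replicate 2, against 36.6% of all such untested probe sets.
Ccl12, a CCR2 ligand of mice, had 328 and 352 in the arrays labelled Ad-lipin, against 37.3 and 161 in the GFP control arrays. Ccl11, or eotaxin, which attracts eosinophils, had 86.6 and 88.7 against 227 and 817. Neither pair of groups overlapped, and the Ccl11 signals of the arrays labelled Ad-lipin were under the floor. Other untested genes were separated too. Ccr6 was lower on both arrays labelled Ad-lipin, at 146 and 72.7 against 431 and 868. Ccl3, Ccr3, Ccr4 and a Ccr9 probe set were higher on both, with most of their signals under the floor. The share of separated groups over all untested probe sets was not counted.
Ccl17, a CCR4 ligand of dendritic cells, had 1655 and 111 against 120 and 44.3, and Ccl22, which shares that receptor, had 1074 and 75.3 against 124 and 846. Ad-lipin replicate 1 was the highest array for both. Ccl7, another monocyte attractant, had 404 and 109 against 19.5 and 1097, and Ccl20, the CCR6 ligand, had 647 and 104 against 71.9 and 1039. Both repeated the order seen for Ccl22 in the GFP control arrays, low in replicate 1 and high in replicate 2.
Xcl1, the ligand of XCR1, had 39.4 and 203 against 131 and 1198. Its highest array was GFP control replicate 2, as for both probe sets of Ccr1, a receptor of myeloid cells, which reached 563 and 367 there and were under the floor elsewhere. Cxcr4, the receptor of CXCL12, had 59.1 and 68.5 against 621 and 68.1, so GFP control replicate 1 alone exceeded the floor. Cxcr2, the neutrophil receptor for CXCL1, had 223 and 121 against 129 and 224, and overlapped.

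Genes around the chemokine system gave no calls either. Atypical receptors, which bind chemokines without G protein signalling, and chemokine-like proteins had 6 tested genes of 11 measured, 5 above 0, with a median log2 difference of 0.42 and 0 past the test. Mif, a cytokine that binds CXCR2 and CXCR4, had 14814 and 18066 against 11633 and 10855, with 0.54 ± 0.31 as the log2 difference (limma adjusted p = 0.962). Ackr2, a scavenger of CC ligands, had 668 and 942 against 563 and 58.1, and Ackr1, the Duffy receptor, had 1585 and 1631 against 826 and 1437. All of Mif, Ackr2 and Ackr1 were higher on both arrays labelled Ad-lipin, 3 of the 6 tested, against 17.3% of all tested genes. Ackr2, however, dropped to 0.49 on the log2 scale, against 1.61, without GFP control replicate 2. Ackr4 had 867 and 114 against 732 and 395, with overlap.
Genes of receptor signalling had 17 tested of 24 measured, 6 above 0 and 11 below, a median of -0.12 and 0 past the test. Arrb2, the arrestin that desensitises receptors, had 1809 and 829 against 812 and 41.0 (log2 difference 1.98 ± 1.09, or 0.59 without GFP control replicate 2). Pik3cd, a leukocyte PI3 kinase, had 121 and 561 against 448 and 1694, Rac2, a leukocyte GTPase, had 1160 and 474 against 1360 and 1205, and Gnai2, the inhibitory G protein of these receptors, had 15195 and 9825 against 11583 and 7959. Only Rac2 of these 4 had both arrays labelled Ad-lipin below both GFP control arrays, and Arrb2 had both above. Of the 17 tested, 1 was higher on both and 3 were lower on both, against 17.3% and 16% of all tested genes.
A list built around the cytokines and factors that switch on chemokine genes had 18 tested of 25 measured, 7 above 0 and 11 below. Its median was -0.36, with 0 past the test. The list also held the NF-kB inhibitor Nfkbia and the adhesion genes Icam1, Vcam1 and Sele, which are not such factors. Rela, the NF-kB p65 subunit, had 5163 and 5216 against 4399 and 1369, with 1.08 ± 0.49 as the log2 difference (limma adjusted p = 0.962) that was 0.24 without GFP control replicate 2. Ikbkb, the kinase upstream of NF-kB, had 3404 and 3663 against 2392 and 2567, and Irf3, an interferon regulator, had 4354 and 5595 against 2523 and 4591. Both arrays labelled Ad-lipin exceeded both GFP control arrays for Rela and Ikbkb, and the groups overlapped for Irf3. Of the 18 tested, 4 were higher on both and 3 were lower on both, against 17.3% and 16% of all tested genes. Tlr2 had 1631 and 322 against 1282 and 1858, with overlap.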

How the data were processed

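Linear intensity values, 1 MAS5 signal per probe set and array, were used as the authors deposited them. MAS5 is named in the submitters' processing notes, while version and scaling target are unknown here. Trimmed means matched on all arrays (1501), so no further normalization was applied. Detection calls were not used here, so "dim" refers to the signal alone. MAS5 subtracts mismatch probes, which leaves dim probe sets noisy.

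Of 22690 probe sets, 64 controls were left out. The log2 scale had a floor at a signal of 119.5 (20th percentile), which understates the fold of dim genes, and the 13576 probe sets reaching the 40th percentile of mean log2 signal entered the test. The two-sided test came from limma 3.58.1 (R 4.3.3; lmFit and a trended eBayes; 2 residual and 12.7 prior degrees of freedom), and Benjamini-Hochberg correction covered every tested probe set. The fit was checked on simulated data. An exact test of 2 arrays against 2 cannot go below p = 0.333. Where the replicates are not separate animals, p-values measure technical spread only.

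Symbols came from the platform annotation, where 20380 probe sets had 1 symbol, 691 several and 1555 none listed. A gene was represented by its brightest tested probe set. All tested members were named, with up to 4 genes of smallest p from each pathway list; untested members given with signals were chosen after their values were seen, as were the promoters. Members and lists were chosen with earlier results of these data known. Alternatives were quantile normalization, another floor, no filter, no trend, the replicate number as a block, each array left out, a threshold of 0.1, and averaging the probe sets of each gene.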

Additional observations from a re-analysis of the deposited data

How the results depend on the processing

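Chemokine and receptor probe sets past limma's threshold numbered 0 higher and 0 lower under every alternative fit. The lowest adjusted p of a member gene over these fits was 0.41, that of Ccl6 without GFP control replicate 1. Quantile normalization, a floor at the 10th percentile, no filter, no trend and the replicate block reversed 0 of the tested member genes, but Ccr8 and Cxcl11 were too dim to test with the lower floor. The number shared by replicates is not stated to pair the samples, and deviations of same-numbered arrays correlated at 0.0283. With the replicate block limma called 34 probe sets higher and 18 lower over the whole table, none of them a member. With each array left out these numbers ran from 0 to 7 and from 0 to 6, again without members. Member genes with separated groups ran from 4 to 10 higher and from 10 to 16 lower, as a check added after the data were seen. Averaging the tested probe sets of a gene turned Cxcl12 to 0.16 and Cxcl16 to 0.18.

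Leaving out each array in turn reversed 15 of 28 member genes for at least 1 array, and 13 kept their direction. The log2 difference then ranged from -0.85 to 0.18 for Ccl1, -0.27 to 2.22 for Ccl2, -0.42 to 0.38 for Ccl4, -2.81 to 0.089 for Ccl5, -1.58 to 3.24 for Ccl6, -0.015 to 0.24 for Ccl9 and -0.26 to 1.35 for Ccl28. It ranged from -1.91 to 0.92 for Cxcl1, -1.35 to 0.027 for Cxcl2, -1.57 to 1.36 for Cxcl9, -0.56 to 2.43 for Cxcl10, -0.57 to 2.18 for Cxcl11, -0.26 to 0.12 for Cxcl12, -0.53 to 0.80 for Cxcl14 and -0.67 to 0.92 for Pf4. Among the other named genes it ranged from -2.17 to 0.69 for Ackr4 and from -2.26 to 0.079 for Tlr2. The cause of these reversals was not tested. In those fits 1 group keeps a single array, which is taken to be as variable as the other group. The number of arrays and the low signals of receptors limit all these values.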
